A study of Arabidopsis thaliana with 47 samples.

Results

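The 8 arrays described here compare seedlings of Arabidopsis thaliana that grew with or without lincomycin, 4 h after a rise in light, and they are 8 of the 47 arrays of the series. Members were chosen by their labels alone, as the 4 arrays with and the 4 arrays without lincomycin at that time. All were Affymetrix ATH1 arrays of total RNA from whole seedlings of the wild type Col-0, 7 days old, on Linsmaier and Skoog medium with 2% sucrose. Each treated group had 0.5 mM lincomycin in that medium throughout growth. Both groups grew for 6 days in blue plus red light of 0.5 µmol m-2 s-1 before they were shifted to 60 µmol m-2 s-1. A sample pooled 50 to 100 seedlings, and the 4 replicates of a group were grown separately. The series also holds both treatments at 0 h, before the move, and at later times up to 24 h, which are used here only to place the effect at 4 h.

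Lincomycin is an antibiotic that blocks protein synthesis on the bacterial-type ribosomes of plastids. Most plastid proteins are encoded in the nucleus, and a plastid whose development is blocked sends retrograde signals that lower the expression of nuclear genes for photosynthesis. The GOLDEN2-LIKE factors GLK1 and GLK2 activate many of those genes and are themselves known to respond to the state of the plastid. A move to brighter light normally raises genes for light harvesting, photoprotection and flavonoids through photoreceptors and HY5.

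Values are the deposited signals, and differences are log2(signal + 1) with lincomycin minus without it. Values per array are given in the order of the replicate numbers, arrays 1 to 4. A gene is said to have risen or fallen where limma's moderated test gave an adjusted p under 0.05, with Benjamini-Hochberg adjustment over all 22746 probe sets that are no controls. The test used 23 arrays at 0, 4 and 24 h, which share one estimate of the spread. It leaves out array 4 without lincomycin at 24 h, which stands apart from the other arrays of its group, with a log2 signal of the spike-in control Dap of 4.52. At 0 h it uses replicates 5 to 8, since the Dap signals of replicates 1 to 4 differ between the treatments, at 3.01 to 5.02 without and 9.08 to 9.28 with lincomycin. At 4 h they lay at 8.28 to 8.65 and 8.33 to 8.45. Of all probe sets, 5262 were called at 4 h (23.1%), with 3151 higher (13.9%) and 2111 lower (9.28%) with lincomycin, and the median over all of them was 0.06. These shares are the background of each list count below. After quantile normalization 2846 were higher and 2321 lower, and the median was 0.02, so the excess of rises depends in part on scaling. Among the 5262 called, 91 rose and 107 fell by more than 2 on the log2 scale, and 456 rose and 518 fell by more than 1. The 4 and 4 arrays did not overlap for 6163 probe sets (27.1%). With all 47 arrays in the fit, that 24 h array included, 3155 probe sets were called, 1834 higher and 1321 lower. In that fit the calls given below for RCA, PGK1, CAT2, HEMB1, HEMC, CGA1, FSD3, PRPL4, PRPS20, FTSZ2-1, VAR1, VAR2, TOC33, rbcL, TT4, F3H, FLS1, TOC1, CCA1, ELIP1, HSP101, AOX1A, NAC017, ADG1, NIA1, GLN1;1, TSO2, HAT1, ACT2 and ACT8 were lost. Signals below the first quartile of their arrays, 44.3 without and 46.5 with lincomycin on average, are called dim here, and a dim group mean allows only a bound on a difference. Median signals were 196.7 to 201.3 without and 211.4 to 217.4 with lincomycin. The arrays of a group correlated at 0.978 to 0.985 by rank, against 0.960 to 0.968 between groups. No array of the 8 stood apart, and their small number limits the precision.

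Among the 12 largest falls were the genes CA1, LHCB2.3 and FBA5 and those of the factors GLK1 and GLK2. CA1, a carbonic anhydrase of the plastid that interconverts carbon dioxide and bicarbonate, read 13026, 13621, 13645 and 13692 in arrays 1 to 4 without lincomycin and 243, 322, 313 and 356 with it. The groups lay 44-fold apart, a log2 difference of -5.46 ± 0.17 (SE, n = 4 and 4, adjusted p = 1.24e-13). LHCB2.3, a protein of the light-harvesting antenna of photosystem II, read 2779.9, 3450.2, 3565 and 2860.3 without lincomycin. With it the 4 values were 133, 110.0, 99.1 and 123, which gives -4.75 ± 0.25 (adjusted p = 1.11e-10). FBA5, a fructose-bisphosphate aldolase, read 1473, 1604, 1606 and 1602 without and 67.2, 89.8, 38.1 and 81.4 with lincomycin, a difference of -4.55 ± 0.35 (adjusted p = 1.63e-08). In all 3 genes the highest treated array stayed far below the lowest untreated one, though separate groups were a condition for the 12 largest falls. The locus AT3G28270, which has no symbol in the annotation used, fell furthest of all, from 4659, 5210.3, 5036 and 5875 to 126, 67.7, 122 and 97.8. Its difference was -5.67 ± 0.42. AT1G70820 and AT2G27420 became dim with lincomycin, so their differences are bounds of at least 3.51 and at least 3.29 on the log2 scale. The other loci among the 12 largest falls were LEA3, a gene of a late embryogenesis abundant protein family (-3.30), AT5G50915 (-3.27), AT5G03350 (-3.17) and AT5G48490 (-3.12), with GLK2 and GLK1 described below. These are bulk samples, so fewer cells of a type and less RNA per cell cannot be told apart.

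Among the 12 largest rises were DFR and UF3GT of anthocyanin synthesis, described below, and loci without a symbol. AT5G55450 had very low signals without lincomycin, at 3.41, 2.77, 2.22 and 2.43, and read 204, 287, 187 and 175 with it. Against the dim limit this is a rise of at least 2.21 on the log2 scale (adjusted p = 1.59e-12). AT3G05730 read 57.3, 75.3, 39.9 and 64.2 without and 809.5, 784, 830.2 and 819 with lincomycin, a difference of 3.79 ± 0.42 (adjusted p = 1.96e-06). All treated arrays of that locus lay close together, and far above the untreated ones. AT3G24750 rose by 3.25, AT1G16850 by 2.56 and AT5G18600 by 2.42. AT2G43620 rose by 3.22 ± 0.50, with widely spread signals of 82.4, 118, 35.2 and 18.5 without lincomycin. Its untreated arrays 3 and 4 lay below the dim limit of 44.3. The gene scpl35, named for a serine carboxypeptidase-like protein, read 284, 422, 263 and 435 without and 2048, 2142, 2064 and 2121 with lincomycin (2.61 ± 0.17, adjusted p = 2.38e-09). GMI1, named for its induction by gamma irradiation and mitomycin C, went from 79.4, 34.4, 65.6 and 68.4 to 339, 252, 257 and 235 (2.16 ± 0.23, adjusted p = 1.11e-06). None of these pairs of groups overlapped, but separate groups were a condition for being named among the 12 largest rises.

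**Figure D1:**
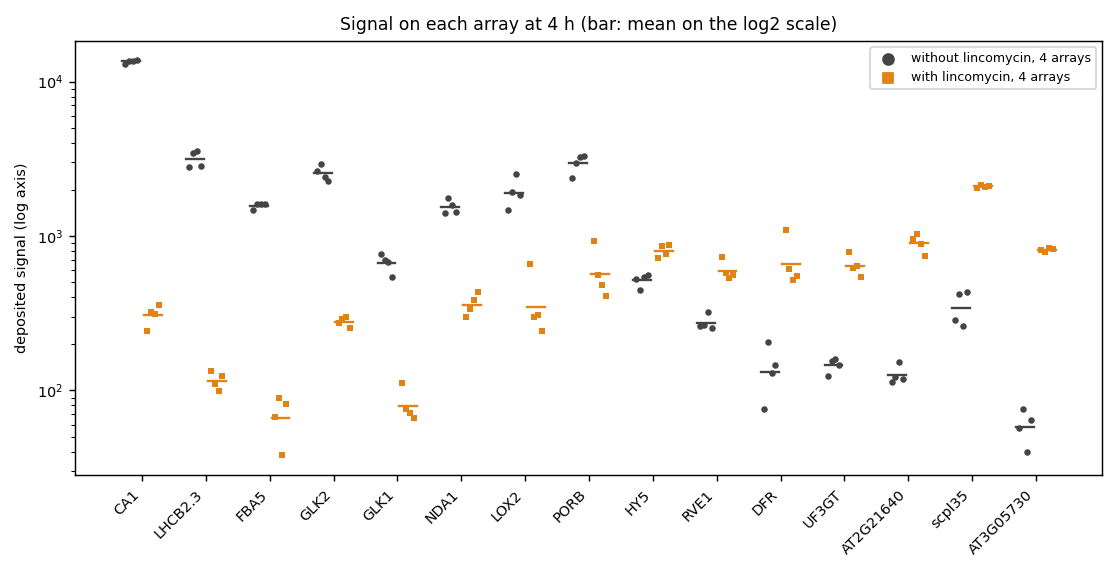
Deposited signal on each array (log axis) for 15 genes at 4 h, with circles for the 4 arrays without and squares for the 4 with lincomycin and bars for means on the log2 scale. CA1 sits at 13026 or above without and at 356 or below with lincomycin, while DFR, UF3GT, AT2G21640, scpl35 and AT3G05730 sit higher with it. No gene shown has overlapping groups, which was a condition for those among the largest rises and falls.

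Nuclear genes of the photosynthetic machinery fell without exception in 5 of the 6 lists, against 9.28% of all probe sets that fell. All 12 of 12 photosystem I genes were lower, with a median of -1.88 and a range of -2.64 to -1.399. PSAD2, a subunit on the stromal side that docks ferredoxin, read 4795, 5340.0, 5294 and 5198 without and 872, 757, 934 and 759.6 with lincomycin (-2.64 ± 0.14, adjusted p = 1.11e-10). Its paralog PSAD1 gave -1.86, from 10956, 9633, 10809 and 10499 to 3062, 3008, 2898 and 2587. The docking subunits PSAO and PSAH2 fell, with differences of -2.36 and -2.34, and PSAG had the smallest fall, -1.399. Close paralogs have separate probe sets but may cross-hybridise, so how far they differ is uncertain, and the difference between them was not tested.

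All 11 of 11 photosystem II genes were lower as well, with a median of -1.44. PSBQ2, an extrinsic subunit of the oxygen-evolving complex, read 8838, 8631, 9054 and 8343 without and 1340.2, 1037, 1235 and 1192 with lincomycin, a difference of -2.86 ± 0.09 (adjusted p = 1.24e-13). Its paralog PSBQ1 gave -1.88, the small subunits PSBY and PSBTN -1.996 and -1.94, and the extrinsic PSBP1 and PSBO1 -1.60 and -1.37. The subunit PSBR had the smallest difference of the list, -0.71. PSBS, the sensor of lumen acidity for energy dissipation, read 11071, 12360.5, 13113 and 10683 without and 5022, 5300.4, 5596 and 5582 with lincomycin (-1.13 ± 0.12, adjusted p = 1.74e-06).

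Of the antenna genes, 11 of 12 measured fell, with a median of -1.70, and 20 were listed, of which the others have no probe set that matches 1 gene only. LHCB6, a minor antenna protein of photosystem II, read 8682, 8155, 9682 and 8722 without and 1118, 1216, 1135 and 1137 with lincomycin (-2.93 ± 0.11, adjusted p = 1.59e-12). LHCB4.2 gave -2.57, LHCB3 -2.22 and LHCA1 of photosystem I -2.03, while the minor LHCA6 gave -2.22 and LHCA5 -0.77. LHCB4.3 was the exception, at 446, 397, 443 and 391 without and 488, 428, 421 and 493 with lincomycin. Those groups overlapped, and its difference of 0.13 ± 0.15 did not pass the test (adjusted p = 0.618). LHCB4.1, the third gene of that family, gave -1.37.

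In electron transport and the ATP synthase 12 of 12 genes fell, with a median of -1.13. PETE1, one of the plastocyanins that carry electrons to photosystem I, read 3894, 3456, 3821 and 4286 without and 637, 639, 605 and 632 with lincomycin (-2.61 ± 0.09, adjusted p = 4.86e-13). PETE2, the other plastocyanin, gave -1.14. ATPD, the delta subunit of the plastid ATP synthase, gave -2.24, and the gamma subunit ATPC1 -1.13. The Rieske protein PETC gave -1.21 and the cyclic electron flow protein PGRL1A -1.20. The smallest falls were those of PGR5, another protein of cyclic flow, at -0.61, and of the ferredoxins FD2 and FD1 at -0.82 and -0.53.

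Carbon fixation had 18 of 18 genes lower, with a median of -1.25. Next to CA1, the second carbonic anhydrase CA2 read 16624, 16991, 16946 and 13604 without and 3166, 3501, 3357 and 3569 with lincomycin (-2.23 ± 0.17, adjusted p = 1.21e-08). CP12-2, a small protein that binds phosphoribulokinase and glyceraldehyde-3-phosphate dehydrogenase, gave -2.31. Its partner PRK gave -1.72, and the dehydrogenase subunits GAPA2, GAPB and GAPA1 -1.67, -1.33 and -0.80. The phosphatase SBPASE fell by 1.73. RCA, the activase of Rubisco, read 14915, 15167, 17349 and 14228 without and 8801, 7245, 8054 and 7953 with lincomycin (-0.94 ± 0.11, adjusted p = 2.80e-06). PGK1 had the smallest fall, -0.47.

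Photorespiration recovers the carbon of 2-phosphoglycolate through plastids, peroxisomes and mitochondria, and 13 of 13 of its genes fell, with a median of -1.29. AGT1, a peroxisomal aminotransferase, read 9807, 10695, 10192 and 8565 without and 2921, 2719.8, 3134 and 3282 with lincomycin (-1.70 ± 0.10, adjusted p = 4.07e-10). The plastid glutamine synthetase GS2 gave -1.61, the carrier DIT1 -1.49, the peroxisomal reductase HPR1 -1.42 and the mitochondrial glycine decarboxylase GLDP1 -1.38. CAT2, the main leaf catalase, fell by 0.63, from 18693, 20345, 18798 and 16969 to 12913, 11410.2, 12152 and 11745.

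**Figure D2:**
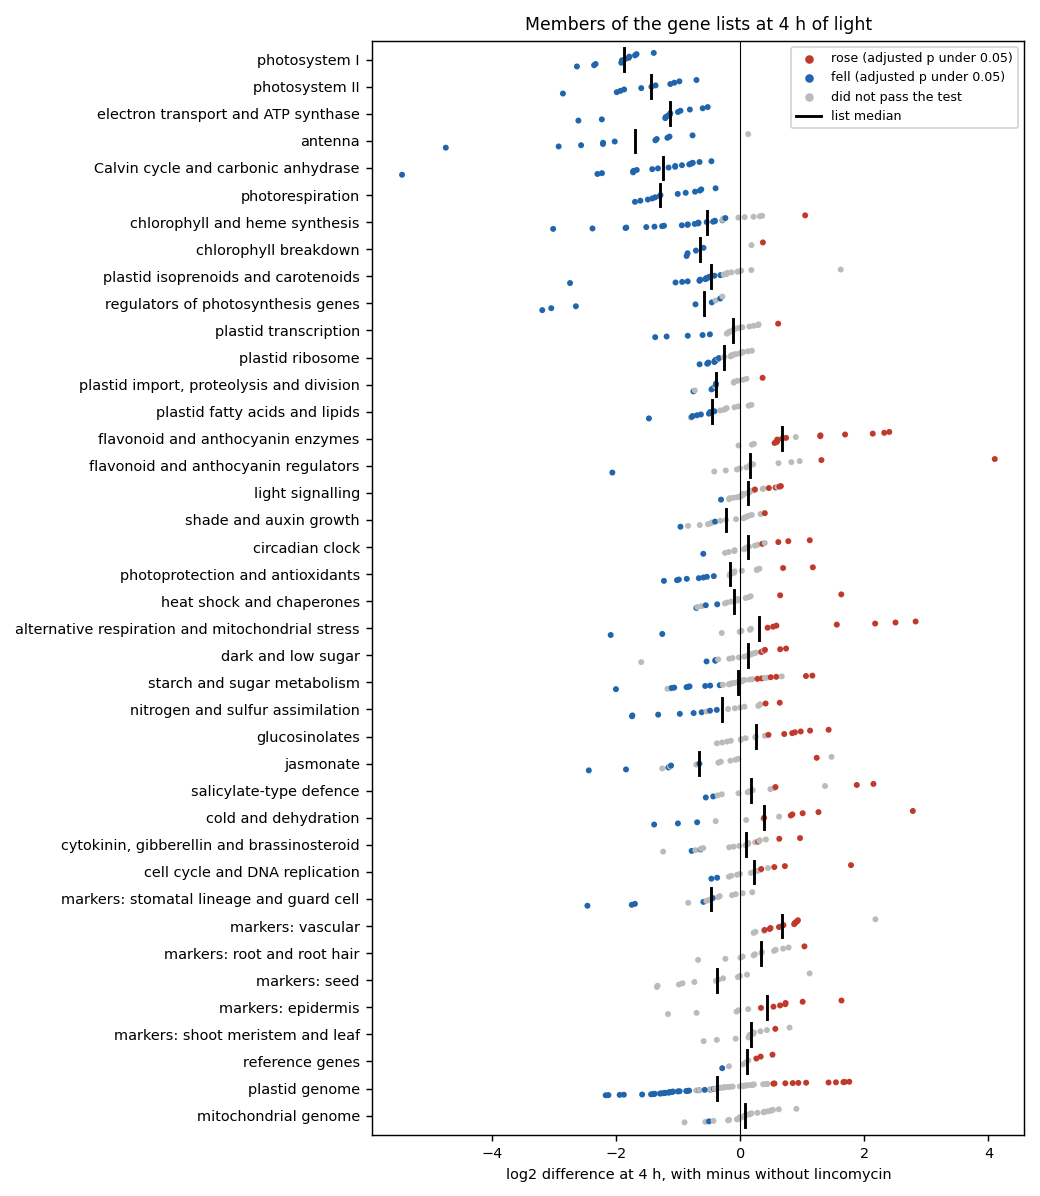
Log2 difference at 4 h (horizontal axis, with minus without lincomycin) of every measured member of each gene list, one point per gene, blue for falls, red for rises and grey for genes that did not pass the test, with a black tick at the list median. The 6 photosynthesis lists at the top have medians of -1.88 to -1.13, with LHCB4.3 at 0.13 as the one point right of 0, and points of dim genes are drawn at their fitted value, not at their bound.

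Chlorophyll and heme share a pathway from glutamate to protoporphyrin IX that ends in a magnesium branch and an iron branch. Of 31 genes of the pathway 21 fell and 1 rose, with a median of -0.54. Without treated array 1, 2 rose. At the entry, HEMA1, the glutamyl-tRNA reductase that limits the pathway, read 2873, 3086, 3119.5 and 3086 without and 721, 881, 879 and 922 with lincomycin (-1.84 ± 0.11, adjusted p = 4.95e-10). Its paralog HEMA2 gave 0.21, with overlapping arrays, and did not pass the test. The middle steps gave differences of -0.44 for HEMB1, -0.68 for HEMC and -1.26 for HEME1, the uroporphyrinogen decarboxylase.

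In the magnesium branch the chelatase subunits CHLH and CHLI1 fell, with differences of -0.85 and -0.68. GUN4, a regulator that binds the chelatase and its porphyrins, read 3395, 3057, 3155 and 3180.2 without and 1199.5, 1486, 1467 and 1302 with lincomycin (-1.23 ± 0.13, adjusted p = 8.90e-07). The later enzymes CHLM and CRD1 gave -0.95 and -1.39. All 3 protochlorophyllide oxidoreductases, which use light to make chlorophyllide, fell. PORB read 2368, 2985, 3265 and 3289.7 without and 921, 556, 479 and 411 with lincomycin (-2.39 ± 0.19, adjusted p = 2.87e-08), and PORC went from 3506, 3779, 4174 and 3976 to 1315, 1350.3, 1376 and 1331 (-1.52). PORA read 126, 136, 98.9 and 113 without lincomycin and 22, 8.65, 42.8 and 3.69 with it. The treated group is dim, which allows only a bound of at least 1.32 on the log2 scale. CAO, which makes chlorophyll b, fell by 1.85.

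In the iron branch the ferrochelatases were, without a test between them, FC2 at -0.74 ± 0.15 (adjusted p = 0.00113) and FC1 at 0.35 ± 0.13 (adjusted p = 0.0682), which did not pass the test. HY2, the enzyme that makes the phytochrome chromophore, was the one gene of the pathway that rose. It read 121, 174, 123 and 120.2 without and 308, 269, 257 and 268 with lincomycin (1.04 ± 0.20, adjusted p = 7.37e-04), and its groups did not overlap. The heme oxygenase HO1, one step before it, gave -0.28 and did not pass. Among genes of chlorophyll breakdown 4 of 6 fell, the largest being PAO, the pheophorbide a oxygenase, at -0.87, and SGR1, which takes magnesium out of chlorophyll, rose by 0.36.

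**Figure D3:**
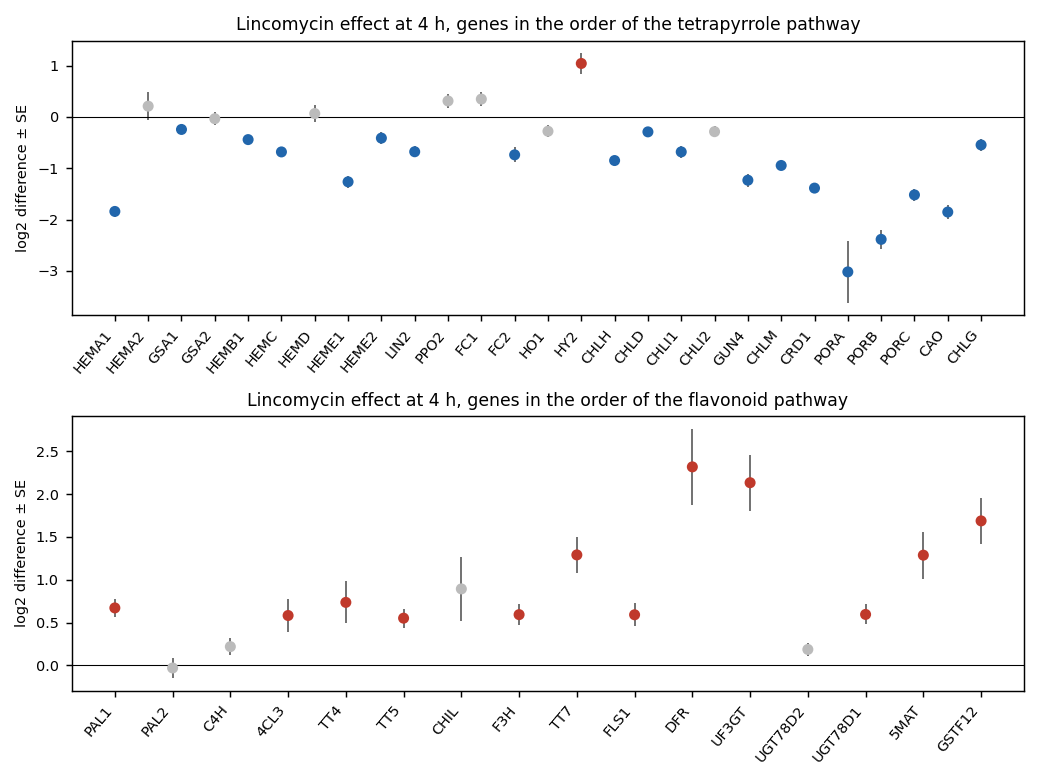
Log2 difference at 4 h with its SE (n = 4 and 4) for genes in pathway order, blue for falls, red for rises and grey for genes that did not pass the test; genes without a matching symbol in the annotation are not drawn. In the upper panel the lowest points are HEMA1 at the entry and PORA, PORB and CAO near the end, and HY2 alone is red. PORA is dim with lincomycin and is drawn at its fitted value, not at its bound, so its rank is not measured. In the lower panel DFR and UF3GT stand highest.

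Carotenoids and their isoprenoid precursors showed 15 falls and 0 rises among 25 genes, with a median of -0.47. BCH2, a beta-carotene hydroxylase, read 1189, 1065, 1008 and 693 without and 161, 127, 127 and 162 with lincomycin (-2.75 ± 0.17, adjusted p = 8.51e-10). Its paralog BCH1 fell by 0.55, from 3722, 3007, 3445 and 2994 to 2210.2, 2154, 2258 and 2347. PSY, the phytoene synthase at the entry to carotenoids, gave -1.05, and GGPS1, which makes its substrate, -0.94. The desaturases PDS3 and ZDS, which follow phytoene synthase, gave -0.01 and -0.21 and did not pass the test. Of plastid fatty acid and lipid genes 9 of 18 fell, with a median of -0.45, and with all 47 arrays in the fit 5 did. FAD5, a desaturase of thylakoid lipids, went from 10835, 9849, 10829 and 11122 to 3819, 4151, 3830.4 and 3530.0 (-1.48 ± 0.12, adjusted p = 3.53e-08), and MGD1, which makes the main thylakoid galactolipid, gave -0.64.

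Both GOLDEN2-LIKE activators fell. GLK2 read 2649.9, 2912, 2427 and 2281 without and 275, 289.6, 297 and 252 with lincomycin (-3.20 ± 0.11, adjusted p = 2.95e-13). GLK1, listed as GPRI1 in the annotation, read 767, 697, 683 and 545 without and 112, 75.4, 71.6 and 66.8 with it (-3.05 ± 0.20, adjusted p = 1.69e-09). BBX16, a B-box factor, dropped from 205, 158, 201 and 186 to 29, 40.2, 19.2 and 30.4, a fall of at least 1.98 on the log2 scale, and its relative BBX14 gave -0.73. The GATA factor CGA1 gave -0.46 ± 0.15 (adjusted p = 0.0307), a call lost without any of treated arrays 1, 2 and 4 and untreated arrays 1 and 2 (adjusted p 0.0388 to 0.0893 over the 8 fits that leave out 1 array). Its paralog GNC gave -0.40 and did not pass (adjusted p = 0.0616). GUN1, a plastid protein of retrograde signalling, fell by 0.33. In all, 6 of 8 regulators fell and 0 rose.

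Nuclear genes also supply the plastid's own machinery of gene expression. Of 20 genes of plastid transcription 5 fell and 1 rose, with a median of -0.12. The 5 that fell were 4 sigma factors, which direct the plastid's bacterial-type RNA polymerase to promoters, and PTAC2. SIG4 read 992, 865, 991 and 926 without and 355, 375, 332 and 391 with lincomycin (-1.38 ± 0.14, adjusted p = 6.51e-07), SIG1 gave -1.19, SIG2 -0.85 and SIG6 -0.49. SIG5, the sigma factor that responds to blue light, read 2841, 2891, 3002 and 2995 without and 3165, 2530.3, 2957 and 2943 with lincomycin, overlapping groups with a difference of -0.02 ± 0.13. FSD3, a superoxide dismutase of the plastid nucleoid, rose by 0.61.

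Plastid ribosomal protein genes showed 11 falls and 0 rises among 25, with a median of -0.27 and no member below -0.66. With all 47 arrays in the fit 7 of them were called. Their values include -0.54 for PRPL4, -0.52 for PRPS20 and -0.42 for PRPS1, the protein of the small subunit that contacts messenger RNA. Among genes of protein import, proteolysis and plastid division 6 of 15 fell, or 3 with all 47 arrays. FTSZ1-1 and FTSZ2-1, which form the division ring, gave -0.76 and -0.47, and the thylakoid proteases VAR2 and VAR1 -0.44 and -0.39. TOC33, a receptor for imported precursors, was the one that rose, from 2213, 1929, 2365 and 2494 to 2924, 2841, 2892 and 2822 (0.36 ± 0.11, adjusted p = 0.0217), a call lost without untreated array 2 (adjusted p = 0.082). The import channel TOC75-III and the motor anchor TIC110 gave 0.04 and 0.10 and did not pass the test.

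Probe sets of the plastid genome itself moved in both directions. Of 71 measured, 29 fell and 11 rose, with a median of -0.38. Photosystem II genes fell in 12 of 15 cases (median -1.21) and photosystem I genes in 3 of 5, while ribosomal protein genes rose in 6 and fell in 3 of 15 cases. Of the genes for the NDH complex of cyclic electron flow 6 of 10 fell, of those for the ATP synthase 1 of 6, and of those for the cytochrome b6f complex 1 of 6 fell and 1 rose. psbA, the D1 reaction centre protein, read 2585, 2023, 3665 and 4308 without and 548, 718, 801 and 630.3 with lincomycin (-2.17 ± 0.19, adjusted p = 1.25e-07). Its untreated arrays 3 and 4 were higher than arrays 1 and 2, as they were for psbH (2413, 2946, 5529.8 and 5743), but all 4 lay above the treated ones. rbcL, the large subunit of Rubisco, gave -0.88, and the polymerase subunit rpoB -0.37, which did not pass the test.

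Most plastid genes that rose form a run of neighbours, a grouping made after its values were seen. All 9 from rpoA to rps19 rose, with differences of 0.72 to 1.76, whereas 2 rose, petA and its neighbour cemA, and 29 fell among the other 62. The call of rpoA was lost without any array but treated array 1 (adjusted p 0.0172 to 0.138 over the 8 fits), and that of cemA without untreated array 1 (adjusted p = 0.0545). rpl14, a protein of the large ribosomal subunit, read 985, 1298, 1246 and 1192 without and 4282, 4129.7, 4197 and 3334 with lincomycin (1.76 ± 0.21, adjusted p = 6.09e-06), and rpl36 went from 4514, 5544, 5889.6 and 3144 to 16278, 14079.7, 15021 and 14266 (1.68). petB and petD, which are the next genes on the other side of rpoA, gave -1.88 and -0.17. Neighbouring plastid genes are often transcribed together, so these probe sets are not independent. The labelling described starts from polyadenylated ends, which are scarce and short-lived on plastid RNAs, so these signals need not follow the amount of each transcript. Of 28 mitochondrial genome probe sets 1 was called, and it fell. That call was lost in 4 of the 8 fits that leave out 1 array (adjusted p 0.0111 to 0.110).

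**Figure D4:**
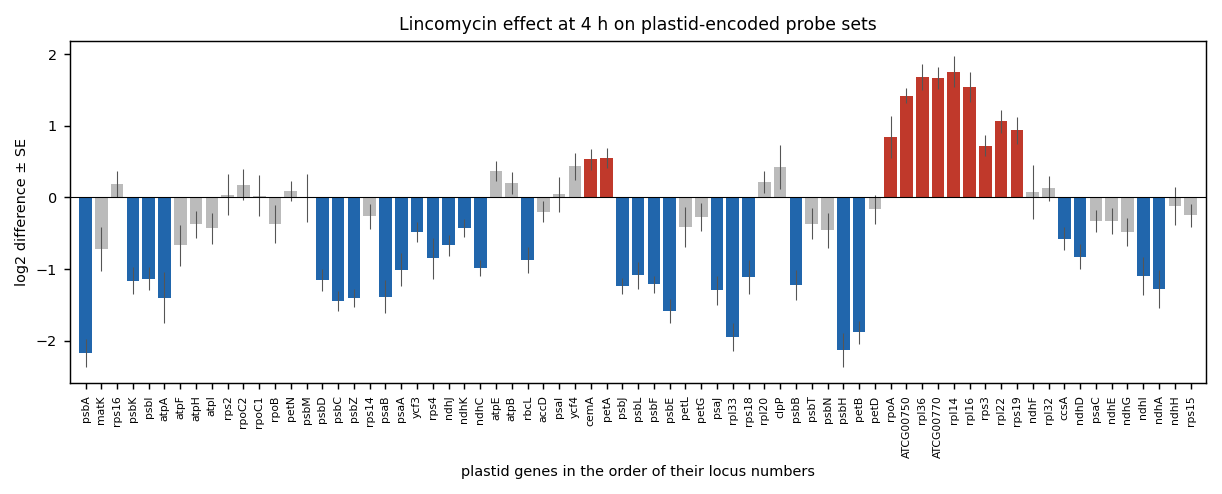
Log2 difference at 4 h with its SE (n = 4 and 4) for 71 plastid-encoded probe sets in the order of their locus numbers, blue for falls, red for rises and grey for those that did not pass the test. The red run from rpoA to rps19 reaches 1.76 at rpl14, and psbA and psbH at -2.17 and -2.13 are the lowest bars.

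Flavonoid and anthocyanin enzymes rose in 13 of 17 cases and fell in none, with a median of 0.67, against 13.9% of all probe sets that rose. In the order of the pathway, PAL1, which starts the phenylpropanoid pathway, read 3232, 3653, 3186 and 3818 without and 5029, 5755, 6036 and 5283 with lincomycin (0.67 ± 0.11, adjusted p = 1.49e-04), and its paralog PAL2 gave -0.03 and did not pass. TT4, the chalcone synthase, read 9968, 8361, 9300.3 and 10484 without and 16174, 16000.0, 15595 and 15474 with lincomycin, which gives 0.74 ± 0.25 (adjusted p = 0.0366). That call was lost without any array but untreated array 4 (adjusted p 0.0496 to 0.0898 over the 8 fits that leave out 1 array), although the groups did not overlap. F3H and the flavonol synthase FLS1 both gave 0.59, and TT7, which hydroxylates the B ring, 1.29.

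Of the late steps, DFR, the dihydroflavonol reductase at the entry to anthocyanins, read 76.2, 205, 131 and 147 without and 1092, 612, 518 and 551 with lincomycin (2.32 ± 0.44, adjusted p = 7.37e-04). UF3GT, an anthocyanin glycosyltransferase, went from 124, 154, 159 and 147 to 788, 616, 639 and 545 (2.13 ± 0.33, adjusted p = 8.26e-05). AT4G14090 of the same list gave 2.40, and GSTF12, the glutathione transferase needed for anthocyanin transport, 1.69. Treated array 1 was the highest for DFR, UF3GT, AT4G14090 and GSTF12. Among 14 regulators 2 rose and 1 fell, beside 13.9% higher and 9.28% lower over all probe sets. TT8, a bHLH activator of the late steps, read 5.34, 2.14, 3.75 and 2.25 without and 96.6, 72.5, 64.2 and 56.3 with lincomycin, a rise of at least 0.67 on the log2 scale against the dim limit. MYB111, an activator of the flavonol steps, rose by 1.31, from 120.3, 125, 86.2 and 103 to 265, 308, 288 and 219. PAP1, the MYB partner of TT8, read 151, 144, 149.8 and 162 without and 130.4, 116, 117 and 91.5 with lincomycin, a difference of -0.42 ± 0.30 that did not pass the test (adjusted p = 0.366), although the groups did not overlap. The one fall was that of MYB114, which was dim in both groups, so no fold is given, and whose call was lost without any of treated arrays 1 and 4 and untreated arrays 1, 2 and 3 (adjusted p 0.00703 to 0.102).

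Of 29 light signalling genes 5 rose and 1 fell, beside 13.9% higher and 9.28% lower over all probe sets. Their median was 0.13, and 3 rose with all 47 arrays in the fit. A rise was lost in 4 of the 8 fits that leave out 1 array, and the fall in 1. HY5, the bZIP factor that activates light-induced genes, read 527, 449.6, 545 and 562 without and 726, 864, 759 and 874 with lincomycin (0.63 ± 0.16, adjusted p = 0.00646), and the groups did not overlap. PKS1, a phytochrome kinase substrate, gave 0.65 and PIF3, a phytochrome-interacting factor, 0.57. The photoreceptor genes CRY1, CRY2 and PHYA gave 0.0043, -0.05 and 0.16 and did not pass the test, and neither did COP1, the ubiquitin ligase that degrades HY5, at -0.01.

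Clock genes showed 4 rises and 1 fall among 16. RVE1, a morning-phased MYB-like factor that links the clock to growth, read 261, 264, 322 and 254 without and 728, 578, 535 and 562 with lincomycin (1.12 ± 0.14, adjusted p = 9.71e-06). PRR3, ELF3 and TOC1, evening parts of the clock, rose by 0.77, 0.61 and 0.35, and CCA1, a morning part, fell by 0.60. GI, LNK1 and LNK2 gave 0.10, -0.09 and -0.25 and did not pass the test.

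Photoprotection and antioxidant genes fell in 8 and rose in 2 of 21 cases, or 5 and 1 with all 47 arrays. ELIP1, an early light-induced protein that binds pigments under bright light, read 2744, 2786, 1903 and 2343 without and 5440.4, 5612, 5538 and 5145 with lincomycin (1.17 ± 0.19, adjusted p = 1.31e-04). Its paralog ELIP2 read 3134, 2617, 1991 and 1954 without and 1619, 2452, 2502 and 2459.5 with lincomycin, overlapping groups with a difference of -0.10. The cytosolic superoxide dismutase CSD1 rose by 0.69. The iron superoxide dismutase FSD1 gave -1.23, the thylakoid ascorbate peroxidase TAPX -1.02 and the plastid peroxiredoxins PRXQ and 2CPB -0.99 and -0.87, all of which fell. The cytosolic peroxidase APX1 gave 0.02 and the stress factors ZAT10 and ZAT12 -0.17 and 0.26, and none of these passed. Of 16 heat shock and chaperone genes 2 rose and 3 fell, beside 13.9% higher and 9.28% lower over all probe sets. HSP101 gave 0.64 and the plastid disaggregase CLPB3 -0.56. The other rise, that of HSP18.2, was lost without any of treated arrays 2, 3 and 4 and untreated arrays 1 and 2 (adjusted p 0.028 to 0.168).

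In alternative respiration, mitochondria bypass the energy-conserving complexes. The list of its genes also holds genes of mitochondrial stress, and its members moved in both directions. Of the 14 genes of both kinds, 7 rose, 4 with all 47 arrays, and 2 fell. AT2G21640, of this list and without a symbol in the annotation, read 113, 123, 153 and 118 without and 960.2, 1023, 887 and 748 with lincomycin (2.83 ± 0.17, adjusted p = 7.24e-10). AOX1A, the main alternative oxidase, read 2341, 1836, 1917 and 2109 without and 2592, 3062, 2791 and 2642 with lincomycin, a rise of 0.44 ± 0.09 (adjusted p = 0.00112). AOX1C, another alternative oxidase, rose by at least 1.63, from 26, 39.9, 32.5 and 24.2 to 156, 157, 122 and 124. NAC013, a factor of mitochondrial retrograde regulation, gave 1.55, from 187, 254, 192 and 129 to 459, 596, 588 and 554, and its relative NAC017 0.53. NDA1, an internal alternative NADH dehydrogenase, moved the other way, from 1409, 1755, 1593 and 1425 to 297, 339, 382 and 436 (-2.09 ± 0.20, adjusted p = 3.41e-07). The other fall of this list was that of UGT74E2, with a log ratio of -1.55 in the authors' deposited table.

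In starch and sugar metabolism 9 of 35 genes fell and 6 rose, 3 of them without treated array 1. GBSS1, the granule-bound synthase that makes amylose, read 759, 596, 652 and 554 without and 142, 147, 183 and 160.3 with lincomycin (-2.01 ± 0.17, adjusted p = 4.90e-08). TPT, which exports triose phosphate from the chloroplast, fell by 1.07, from 10930.1, 13543, 10862 and 11446 to 5909, 5489.6, 5451 and 5372, and the ADP-glucose pyrophosphorylase subunits APL1 and ADG1 gave -0.87 and -0.57. GPT1, which imports glucose 6-phosphate into plastids, rose from 455, 544, 504 and 484 to 1112, 934, 1069.6 and 1023 (1.06 ± 0.10, adjusted p = 1.93e-07), and APL3, a subunit typical of sink tissue, by 1.16 with overlapping arrays. GPT2, the second importer, read 453, 579.9, 499.98 and 512 without and 370.2, 226, 175 and 203 with lincomycin, and its difference of -1.12 ± 0.40 did not pass the test (adjusted p = 0.0517), although the groups did not overlap. The sucrose synthesis gene SPS1F gave 0.01.

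Nitrogen and sulfur assimilation showed 8 falls, 4 with all 47 arrays, and 2 rises among 18 genes. NIA2, the main nitrate reductase, read 10493, 12004, 12134 and 11233 without and 3876, 3109, 3478 and 3255 with lincomycin (-1.74 ± 0.11, adjusted p = 1.69e-09), and NIA1 gave -0.76. All 3 adenosine phosphosulfate reductases, which commit sulfate to reduction, fell. APR3 went from 1727, 1556, 1364 and 1561 to 523, 436, 457 and 427 (-1.75 ± 0.11, adjusted p = 5.93e-10), APR2 gave -1.33 and APR1 -0.98. The rises were those of the cytosolic glutamine synthetases GLN1;3 (0.63) and GLN1;1 (0.41), next to the fall of the plastid enzyme GS2 given above.

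Jasmonate genes fell in 5 and rose in 1 of 15 cases, with a median of -0.66. The rise was lost in 6 of the 8 fits that leave out 1 array (adjusted p 0.0178 to 0.153), and a fall in 3. LOX2, the plastid lipoxygenase at the entry to jasmonate synthesis, read 1476, 1921, 2508 and 1839 without and 659, 299, 306 and 243 with lincomycin (-2.45 ± 0.40, adjusted p = 1.54e-04). Next in the pathway, AOS gave -1.12 and OPR3 -0.66. The repressor JAZ10, itself induced by the hormone, fell from 113, 153, 265 and 199 to 51.4, 53.5, 48.6 and 38.5 (-1.85 ± 0.37, adjusted p = 0.00102), while the factor MYC2 gave -0.03 and did not pass. In defence of the salicylate type 3 of 14 rose and 2 fell, of which 1 did without treated array 1 or 2 or untreated array 1 and none with all 47 arrays. A rise was lost in 4 of the 8 fits that leave out 1 array. FMO1, a monooxygenase of systemic resistance, rose by at least 1.51, from 69.2, 42.3, 28.7 and 15.7 to 127, 126, 138 and 121. PR1, the standard marker of this pathway, read 34.9, 68.9, 67.7 and 45.9 without and 59.5, 143, 58.2 and 58.9 with lincomycin, overlapping groups that did not pass the test.

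Glucosinolate genes rose in 7 of 17 cases and fell in none. BCAT4 and MAM1, the first steps of methionine side-chain elongation, rose by 1.12 and 0.83, and MAM3 by 0.97. CYP79B3, which starts the tryptophan-derived branch, read 848, 960.1, 1149 and 1012 without and 1609.8, 1485, 1690.1 and 1662 with lincomycin (0.71 ± 0.14, adjusted p = 8.78e-04). The regulators MYB29 and MYB28 of the aliphatic branch gave 0.88, which passed, and -0.16, which did not. Of 13 cold and dehydration genes 6 rose and 3 fell, a rise being lost in 5 of the 8 fits that leave out 1 array. RD29A, a standard marker of the response, rose from 3459, 3065, 1876 and 2438 to 7546, 5069.8, 6372 and 6525 (1.26 ± 0.18, adjusted p = 4.09e-05), and the dehydrin ERD10 by 0.81, while the dehydrin RAB18 fell by 1.39.

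Among cytokinin, gibberellin and brassinosteroid genes 3 of 20 rose and 2 fell, or 1 with all 47 arrays. Over all probe sets 13.9% rose and 9.28% fell. A rise of this list was lost in 6 of the 8 fits that leave out 1 array. GASA4, a gibberellin-regulated gene, rose from 17098, 17838, 15078 and 14635 to 37862, 30343, 29401 and 28630.4 (0.96 ± 0.11, adjusted p = 2.29e-06), and the cytokinin response regulator ARR5 by 0.63. In cell cycle and DNA replication 4 of 15 rose and 2 fell, the falls being lost without array 1 of either group. A rise there was lost in 5 of the 8 fits that leave out 1 array. CYCB1;1, a cyclin of the G2 to M transition that is also raised by DNA damage, read 60.1, 48.3, 56.6 and 67.9 without and 232, 222, 181 and 176 with lincomycin (1.78 ± 0.18, adjusted p = 7.14e-07). TSO2, a ribonucleotide reductase subunit, gave 0.55, and KN, the cytokinesis syntaxin, 0.72. The replication licensing genes MCM2 and MCM3 gave 0.22 and 0.17 and did not pass. Of the shade and auxin growth genes 1 of 17 rose and 2 fell, among them the shade-responsive HAT1 at -0.97. The shares over all probe sets are the 13.9% and 9.28% above. The rise was lost in 5 of the 8 fits that leave out 1 array. The number of falls was 1 without any of treated arrays 3 and 4 and untreated arrays 1 and 4, and 0 with all 47 arrays.

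Markers of cell types moved with the treatment, and their part in the results above was not tested. Vascular markers rose in 11 of 15 cases, with a median of 0.67, and their mean log2 signal was 7.88 to 7.998 on the arrays without and 8.56 to 8.80 on those with lincomycin. XCP1, a protease of xylem vessels, read 709, 653, 626 and 686 without and 1289, 1264, 1208 and 1326 with lincomycin (0.93 ± 0.13, adjusted p = 4.38e-05), and PP2-A1 of the phloem gave 0.87. Epidermis markers rose in 7 of 12 cases, 4 with all 47 arrays, and their mean log2 signal was 10.13 to 10.40 without and 10.46 to 10.70 with lincomycin. Those that rose include the wax synthesis gene CUT1 (1.00), while the layer identity gene ATML1 gave -0.03 and did not pass. Markers of stomata and their lineage fell in 5 of 15 cases, with means of 6.27 to 6.50 without and 5.49 to 5.89 with lincomycin. Of the 15, 4 were dim in both groups, so the size of that drop in the mean is not measured. A fall of this list was lost in 7 of the 8 fits that leave out 1 array. SPCH, which starts the lineage, read 215, 157, 201 and 159 without and 9.75, 70.4, 34.9 and 41.4 with lincomycin, a fall of at least 1.94, and the polarity gene BASL fell by at least 1.405. EPF2, a peptide of early lineage cells, fell by 1.70, whereas the guard cell genes KAT1, KAT2 and HT1 did not pass the test and the last pair were dim in both groups. Of root markers 1 of 13 rose, of shoot meristem and leaf markers 1 of 12, and of 12 seed markers none was called. The share that rose over all probe sets was 13.9%.

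Part of the effect was already there before the light rose. At 0 h 7331 probe sets were called (32.2%), of which 2392 were called at 4 h in the same direction and 629 in the opposite one. The difference between the effects at 4 and 0 h was tested itself and passed for 4464 probe sets (19.6%), 2003 higher (8.81%) and 2461 lower (10.8%) at 4 h, and 2485 with all 47 arrays. For photosystem I the medians were -1.73 at 0 h and -1.88 at 4 h, and 3 of 12 genes differed, all lower at 4 h. CA1 went from -3.88 to -5.46 (difference -1.58 ± 0.24, adjusted p = 1.30e-04), and GLK1 from -0.66 to -3.05 (difference -2.39 ± 0.28, adjusted p = 1.05e-05). LHCB2.3, at -4.54 and -4.75, had no difference that passed. In the chlorophyll pathway 8 genes were lower and 4 higher at 4 h than at 0 h, with PORB at -0.81 and -2.39 (adjusted p = 3.41e-04).

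In other groups the median lay below 0 at 0 h and near the 0.06 of all probe sets at 4 h. Genes of darkness and low sugar, such as ASN1 and SEN1, had a median of -1.18 at 0 h and 0.13 at 4 h, and 18 of 21 differed, all higher at 4 h. At 4 h itself 5 of them rose and 3 fell, or 3 and none with all 47 arrays. The rises were 3 without any of treated arrays 2 and 4 and untreated arrays 1 and 2, and the falls 1 without any of treated arrays 1 and 3 and untreated array 3. ASN1, an asparagine synthetase induced by darkness, gave -1.90 at 0 h and -0.13 at 4 h (difference 1.78 ± 0.28, adjusted p = 1.53e-04). Clock genes had a median of -0.82 at 0 h and 0.12 at 4 h, with 11 of 16 higher and 1 lower at 4 h. RVE1 had the largest fitted upward difference, and was named for it, from -2.20 to 1.12 (difference 3.32 ± 0.20, adjusted p = 1.49e-08). Of the light signalling genes 14 of 29 were higher at 4 h than at 0 h, among them BBX25 (1.61), HFR1 (1.26) and HYH (1.59).

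LOX2 had the largest fitted downward difference, from 2.72 at 0 h to -2.45 at 4 h (difference -5.17 ± 0.56, adjusted p = 4.86e-06), and 7 of 15 jasmonate genes were lower at 4 h. The sulfate reduction genes APR2 and APR1 went from 0.75 and 0.56 to -1.33 and -0.98, and 8 of 18 assimilation genes were lower. SPCH gave 0.10 at 0 h and fell by at least 1.94 at 4 h (adjusted p of the difference = 0.0429). Among loci without a symbol, AT5G03350 and AT5G50915 had differences of -3.69 and -3.21. Other large upward ones were CYCP2;1 (2.71), a P-type cyclin, and TAT7 (2.60). The rule also named AT2G27420, AT3G26960, AT3G24750 and FAD4, a fatty acid desaturase gene listed as FADA, for their fitted differences between 4 and 0 h. At 0 h, by the limits used for 4 h, AT2G27420 was dim in both groups, AT3G26960 and AT3G24750 without lincomycin and FAD4 with it, so the sizes of these differences are not measured. PSBS, at -2.98 and -1.13, and SIG5, at -2.17 and -0.02, were higher at 4 h (adjusted p = 1.43e-06 and 5.64e-07). TT4, at 3.25 and 0.74, was lower (adjusted p = 4.95e-05).

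**Figure D5:**
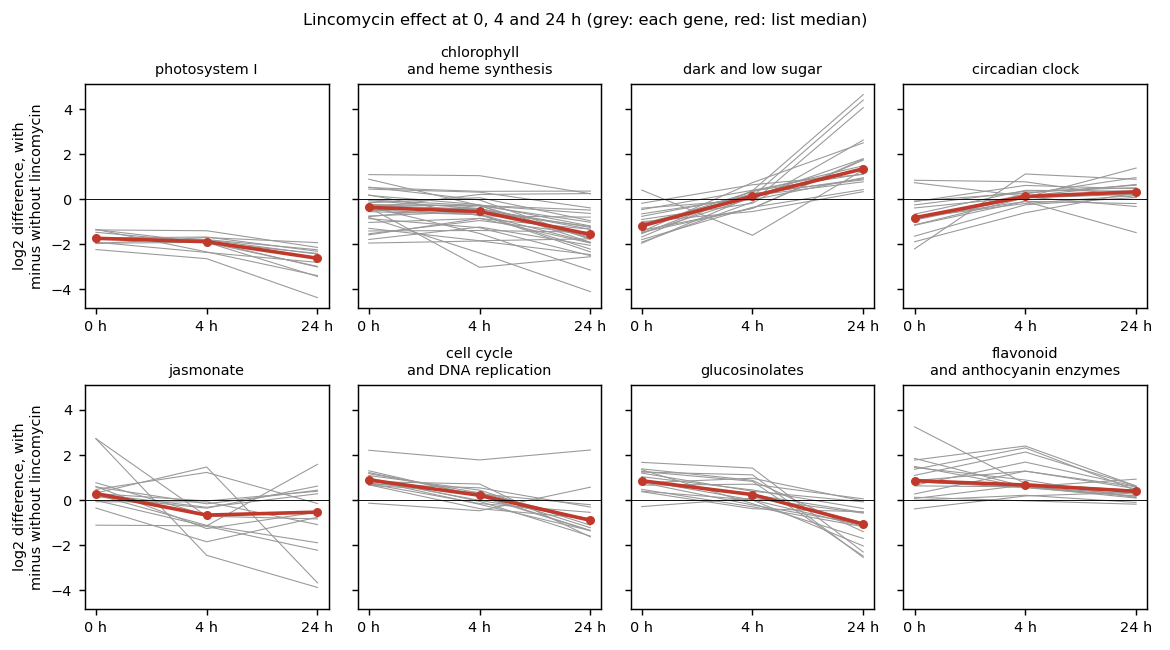
Log2 difference with minus without lincomycin (vertical axis) at 0, 4 and 24 h for the members of 8 gene lists, grey for each gene and red for the list median. The median of the darkness and low sugar genes goes from -1.18 through 0.13 to 1.35, and that of glucosinolate genes from 0.86 through 0.25 to -1.06.

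At 24 h 7441 probe sets were called (32.7%). The effect there differed from that at 4 h for 4299 probe sets (18.9%), 2402 higher (10.6%) and 1897 lower (8.34%) at 24 h, over 3 arrays without and 4 with lincomycin at that time. This comparison and that with 0 h share the arrays at 4 h. Photosystem I genes were lower still at 24 h in 11 of 12 cases (median -2.62), and so were all 25 of 25 plastid ribosome genes (median -1.35). LHCB4.3, which did not pass at 4 h, gave -3.01 at 24 h (difference -3.13 ± 0.22, adjusted p = 3.48e-08). Of the glucosinolate genes 13 of 17 were lower at 24 h, with BCAT4 at 1.12 and -2.54, MAM1 at 0.83 and -2.48 and CYP83A1 at 1.42 and -2.30. AT3G05730, among the largest rises at 4 h, gave -0.15 at 24 h, and AT2G34620 went from -2.10 to -5.45.

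The largest upward differences between 24 and 4 h were those of BCB, a blue copper protein, TCH4, a xyloglucan endotransglucosylase, PHI-1, a phosphate-induced gene, SEN1 and BCAT-2. BCB read 2063, 1812, 2333 and 2293 without and 689.7, 723, 580.0 and 509 with lincomycin at 4 h, a difference of -1.77, and gave 3.42 at 24 h. TCH4 gave -1.68 at 4 h and 3.04 at 24 h, and PHI-1 gave -2.21 and 2.47. SEN1, a senescence and darkness gene, read 839, 919, 1229 and 1174 without and 1031, 1348, 922 and 1233 with lincomycin at 4 h, overlapping groups, and gave 4.398 at 24 h. BCAT-2, which degrades branched-chain amino acids, gave 0.38 and 4.64.

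Of 8 genes often used as references 3 rose and 1 fell, between -0.29 for ACT2 and 0.52 for ACT8, 2 actin genes, while 1 rose without any of treated arrays 1, 2 and 4 and untreated arrays 1 and 4, and none with all 47 arrays. PP2AA3 gave -0.19 and GAPC2 0.09.

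The authors' deposited table of ratios between groups holds 20396 of the probe sets with a value for this comparison. Of the 4979 called here that it lists, 4925 had the same sign in it, but 20 of the 40 list medians differed from those here by more than the spread between replicates. In that table CA1 had a log ratio of -6.47, LHCB2.3 of -6.78, DFR of 3.37 and RVE1 of 1.59.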

How the data were processed

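Affymetrix ATH1 arrays of whole seedlings were used. The authors deposited intensity values per probe set, scaled on each array to a trimmed mean near 500.04, and a table of log2 ratios between groups, whose base was read as log2 from its values. MAS5 and GCRMA are the tools in the submitters' processing notes, and the table each of them made is not given there. From the deposited signals log2(signal + 1) was computed, and limma 3.58.1 (R 4.3.3) fitted 6 groups, with lmFit, eBayes and Benjamini-Hochberg adjustment. The script was tested on simulated data. Probe sets were named from the annotation where they match 1 gene, which 21463 do. Of several probe sets for a gene, the one with the highest mean was used. Named genes are the 12 largest rises and falls among bright, separate calls, the largest 5 differences between times in each direction, up to 6 called and 2 uncalled members of each of 40 lists, and fixed genes. 60 further list members were named after their values were seen. The members and lists were chosen with earlier results of these data known. Alternatives tried were other sets of arrays, quantile normalization, a pseudocount of 50, bright probe sets only, a replicate block and each array left out. No interval from counts applies to arrays, and 0 other columns of per-sample values were left unused.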

Additional observations from a re-analysis of the deposited data

Results flagged for a closer look

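For each gene named above, the 4 arrays of a group were searched for one that lies far from the other 3, by a gap that exceeds Dixon's critical value for 4 values. This held in 28 of 486 groups, and chance alone gives about 1 in 20. Among arrays without lincomycin, signals far below the other 3 were those of CA1 on array 1 (13026, the others 13621 to 13692), CA2 on array 4 (13604, the others 16624 to 16991) and HEMA1 on array 1 (2873, the others 3086 to 3119.5). Others low in that group were ZDS on array 1 (2102, the others 2179 to 2189.7), FAD4 on array 4 (1550.1, the others 2131 to 2215) and CCA1 on array 4 (559.8, the others 638 to 649.6). Low there too were HSP18.2 on array 2 (3.6, the others 30.6 to 44.2), ADG1 on array 1 (888, the others 1235 to 1310.3) and MAM1 on array 1 (329, the others 412 to 418). Also low were FBA5 on array 1 (1473, the others 1602 to 1606) and CYCP2;1 on array 4 (290.0, the others 369.6 to 382). Among treated arrays, the far low signals were those of PSAH2 on array 2 (1848, the others 2538 to 2676), FD2 on array 1 (9578, the others 10739 to 10927) and HYH on array 2 (803, the others 836 to 839.9). Others low with lincomycin were ELIP2 on array 1 (1619, the others 2452 to 2502), APL3 on array 2 (226, the others 449 to 492) and OPR3 on array 4 (929, the others 959 to 960.0). Low with it too were rpl14 on array 4 (3334, the others 4129.7 to 4282). Far above the other 3 without lincomycin were HY2 on array 2 (174, the others 120.2 to 123), RVE1 on array 3 (322, the others 254 to 264) and BCAT4 on array 2 (407, the others 197 to 214). With lincomycin, far high signals were those of SGR1 on array 3 (518, the others 451 to 457), PRPL4 on array 2 (2269, the others 2063 to 2085) and VAR2 on array 1 (8108, the others 6484 to 6529). Others high on a treated array were FTSZ1-1 on array 3 (619, the others 525 to 534), BBX25 on array 1 (2993, the others 2662 to 2676) and NAC017 on array 2 (1766, the others 1470.5 to 1498). High there too was PR1 on array 2 (143, the others 58.2 to 59.5).

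The effect of lincomycin differed between times, by limma on the difference itself with its SE, for the following genes chosen as the largest such fitted differences. At 0 h, by the limits used for 4 h, AT2G27420 was dim in both groups, AT3G26960 and AT3G24750 without lincomycin and FADA with it, so for these the values between 4 and 0 h are those of the fit and their size is not measured. Between 4 and 0 h it was lower at 4 h for LOX2 (-5.17 ± 0.56, adjusted p = 4.86e-06), AT2G27420 (-3.76 ± 0.85, adjusted p = 0.0036) and AT5G03350 (-3.69 ± 0.91, adjusted p = 0.00685). The same held for AT5G50915 (-3.21 ± 0.26, adjusted p = 2.73e-07) and AT3G26960 (-3.00 ± 0.36, adjusted p = 1.18e-05). Between 4 and 0 h it was higher at 4 h for RVE1 (3.32 ± 0.20, adjusted p = 1.49e-08), FADA (2.97 ± 0.52, adjusted p = 4.11e-04) and AT3G24750 (2.85 ± 0.38, adjusted p = 3.61e-05). The same held for CYCP2;1 (2.71 ± 0.22, adjusted p = 2.73e-07) and TAT7 (2.60 ± 0.31, adjusted p = 1.29e-05). Between 24 and 4 h it was lower at 24 h for AT3G05730 (-3.94 ± 0.62, adjusted p = 1.39e-04), CYP83A1 (-3.72 ± 0.51, adjusted p = 3.92e-05) and BCAT4 (-3.66 ± 0.46, adjusted p = 1.50e-05). The same held for AT2G34620 (-3.35 ± 0.27, adjusted p = 1.78e-07) and MAM1 (-3.31 ± 0.33, adjusted p = 1.42e-06). Between 24 and 4 h it was higher at 24 h for BCB (5.19 ± 0.38, adjusted p = 7.87e-08), TCH4 (4.72 ± 0.28, adjusted p = 9.29e-09) and PHI-1 (4.68 ± 0.35, adjusted p = 1.05e-07). The same held for SEN1 (4.27 ± 0.26, adjusted p = 9.29e-09) and BCAT-2 (4.26 ± 0.28, adjusted p = 1.92e-08).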

How the results depend on the processing

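The number of probe sets called at 4 h stayed within 1.5 times of 5262 under each alternative except the fit on all 47 arrays. It was 5143 with 46 arrays, 4578 with the 8 arrays of 4 h alone, 5167 after quantile normalization and 5479 with 50 added to each signal. Among brighter probe sets it was 5283 of 12028 tested, against 5262 of 22746 in the main fit, so the share called was larger there. Quantile normalization gave 2846 higher and 2321 lower, so 55.1% of calls were higher, against 59.9% in the main fit. The fit on all 47 arrays called 3155 at 4 h (1834 higher and 1321 lower) and 2485 for the difference between 4 and 0 h (1115 higher and 1370 lower), and it includes the 24 h array that stands apart. Leaving out each array of 4 h in turn gave 4452 to 4738 calls at 4 h (2627 to 2834 higher, 1825 to 1914 lower). It gave 3905 to 4255 for 4 against 0 h (1750 to 1909 higher, 2155 to 2346 lower) and 3794 to 4035 for 24 against 4 h (2085 to 2253 higher, 1709 to 1827 lower).

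Replicate numbers are shared by the groups, but deviations of same-numbered arrays from their group means correlated at 0.027, -0.008, 0.011 and 0.016. These values show no sign of pairing but cannot exclude it, and the numbers were not used as pairs. With the replicate number as a block 4284 probe sets were called at 4 h, 3478 for 4 against 0 h and 3053 for 24 against 4 h.

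Among named genes, calls were lost in 57 cases with all 47 arrays, 11 with 46, 16 with 8, 7 after quantile normalization, 2 with 50 added and 25 with the block, and none of these reversed. Of the fits of named genes that leave out 1 array, 116 lost a call, 9 gained one and 2987 did neither. In the authors' deposited ratios CBF1 had -0.0041, opposite in sign to the fit here, but it was dim in both groups and neither value measures a change. There 20 of 40 list medians moved by more than the spread between replicates, against 5 among brighter probe sets, 4 after quantile normalization and 4 with 50 added. The median of photosystem I was -2.34 in those ratios, that of light signalling 0.022 and that of shoot meristem and leaf markers -0.0031, a change of sign, and the cause was not tested. Dim signals, below the first quartile, give only bounds, and 4 arrays a group limit the precision.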
